A study of Mus musculus with 4 samples.

Results

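Respiratory complex I is the NADH dehydrogenase of the mitochondrial inner membrane, and its genes are described here in mouse CD8+ T cells exposed to NaBu, the abbreviation commonly used for sodium butyrate. Members were all genes whose symbol in the deposited files starts with *Nduf*, 45 of 17559 genes listed. Of these, 7 are *Ndufaf* assembly factors and 38 carry subunit names. Of the 38, 36 encode structural subunits of the complex. The remaining pair are *Ndufa4*, whose product is now assigned to complex IV, and its paralog *Ndufa4l2*.

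The NaBu group was 2 libraries of C57BL/6 OT-I CD8+ T cells given 1 mM NaBu for 12 h, and the control group was 2 libraries of the same kind of cells labelled as control. All cells were OT-I, with a transgenic T cell receptor for an ovalbumin peptide, and their tissue is labelled LN. Before exposure they had been selected by magnetic beads to a purity above 95%. Plates coated with antibodies, 1 µg/ml to CD3 and 2 µg/ml to CD28, activated them for 2 d with IL-2 (10 ng/ml), and 2 d in IL-2 alone followed. The labels do not say whether libraries came from separate mice or cultures, so p-values measure the spread between these libraries, which may be technical. In bulk RNA, fewer cells of a type and less RNA per cell cannot be told apart.

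Complex I passes electrons from NADH to ubiquinone and pumps protons out of the matrix, and it is the entry point for most electrons of the respiratory chain. Its peripheral arm has an N module, which binds NADH, and a Q module, which carries electrons over iron-sulfur clusters to the ubiquinone site. Its membrane arm is built of modules named after the mitochondrially encoded subunits ND1, ND2, ND4 and ND5. Core subunits are shared with bacteria, and accessory subunits surround them. Activated CD8+ T cells use respiration alongside glycolysis. Mitochondrially encoded subunits and *Ndufb1* were not analysed here.

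Each library held 19857701 to 20548571 expected counts. The *Nduf* genes took 0.175% and 0.185% of them in the NaBu libraries and 0.188% and 0.187% in the controls. Counts of 39 of the 45 members were whole in every library (tolerance 1e-06). The exceptions, with reads divided between genes by estimation, were *Ndufa7*, *Ndufb11*, *Ndufa13*, *Ndufa2*, *Ndufs1* and *Ndufaf7*, which are less certain. The 6 CD8 T cell markers listed summed to an FPKM of 1363 and 1361 in NaBu and 1429 and 1395 in control libraries. Of these 6, 5 fell and *Cd3g* rose, at an FPKM of 556.7 and 554.5 in NaBu and 407.0 and 374.7 in control libraries. *Cd8a* was at an FPKM of 93.9 and 97.0 in NaBu and 118.4 and 115.9 in control libraries. *Ncr1*, of NK cells, was at 0.1 or below in every library. Summed B cell markers were at 3.30 and 2.55 in NaBu and 6.08 and 4.32 in control libraries. Of the 2 tested, *Cd79b* fell, and *Cd22* rose, at 0.68 and 0.59 in NaBu and 0.35 and 0.25 in control libraries. NK cell markers summed to 4.94 and 5.62 in NaBu and 10.7 and 9.55 in control libraries. The 9 myeloid and dendritic markers listed summed to an FPKM of 40.5 and 38.5 in NaBu and 16.6 and 15.1 in control libraries. Of 5 tested, *Cd68*, *Itgam*, *Itgax* and *Mpeg1* rose and *Xcr1* fell. *Cd68* was at 28.4 and 27.1 in NaBu and 11.4 and 9.59 in control libraries, and *Itgam* at 4.83 and 3.79 in NaBu and 0.45 in both controls. *Itgax* was at 4.24 and 4.66 in NaBu and 2.24 and 2.42 in control libraries, and *Mpeg1* at 1.96 and 1.86 in NaBu and 0.20 and 0.39 in control libraries. *Adgre1*, *Cd14*, *Flt3* and *Siglech* were not tested, and *Adgre1* was at 0.02 or below. CD4 T cell markers summed to 1.01 and 0.89 in NaBu and 0.54 and 0.39 in control libraries. *Cd4* itself was at 0.66 and 0.65 in NaBu and 0.02 and 0.03 in control libraries. *Cd40lg* was at 0.12 and 0.0 in NaBu and 0.28 and 0.24 in control libraries. Stromal markers summed to 17.6 and 16.95 in NaBu and 21.0 and 22.1 in control libraries, mostly from *Pecam1*, which was lower in NaBu. *Col1a1* was higher, at 0.54 in both NaBu libraries and 0.04 and 0.11 in control libraries. The part of these cells in the results was not tested.

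The libraries of each group were compared first, because they did not behave alike for these genes. On normalised counts, 33 of 36 structural subunit genes were higher in NaBu 2 than in NaBu 1, by a median of 0.10 on the log2 scale, while 6473 of 12943 tested genes were. Between the controls, 18 of 36 were higher in control 2. Short transcripts moved with this difference. Of 991 tested genes with a mean transcript length under 1000 bases, 65.8% were higher in NaBu 2, by a median of 0.06, and 43.4% were higher in control 2. Of the 27 subunit genes that short, 24 were higher in NaBu 2 and 11 in control 2. The part of transcript length in the subunit results was not tested beyond a fit with the length trend removed, in which 18 subunits fell and 4 rose.

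**Figure D1:**
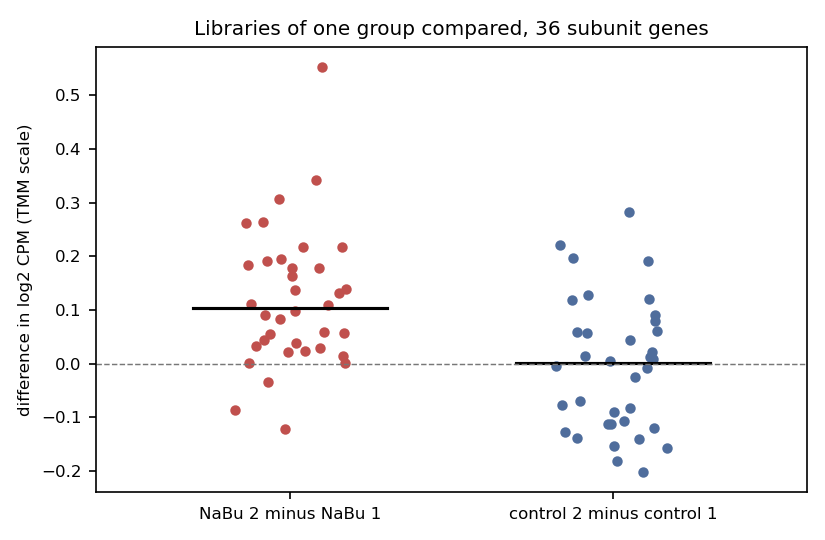
Difference in log2 CPM (depth-scaled counts with TMM factors, vertical axis) between the libraries of each group for 36 structural subunit genes. Each point is a gene and each bar a median. The NaBu points centre on 0.10, with 33 above 0, and the control points centre on 0.

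Subunit genes were expressed at moderate to high levels, and the NaBu and control libraries had much the same total. The summed FPKM of the 36 genes was 2129 and 2281 in NaBu libraries and 2279 and 2252 in control libraries, groups that overlapped. FPKM scales fragments to transcript length and to all mapped fragments, so levels of different genes can be compared. Every structural subunit exceeded an FPKM of 10 in every library, with medians of 44.6 and 50.8 in NaBu and 54.7 and 55.5 in control libraries. Within a library the highest exceeded the lowest 13.9- to 14.3-fold in NaBu and 10.4- to 13.1-fold in control. The highest was *Ndufv3* in both NaBu libraries and *Ndufa3* in both controls. *Ndufa3*, a small accessory subunit near ND1, had an FPKM of 124.2 and 140.3 in NaBu and 146.6 and 170.6 in control libraries. *Ndufs4* or *Ndufa11* was lowest, at 14.1 and 15.5 in NaBu and 14.1 and 13.0 in control libraries.

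**Figure D2:**
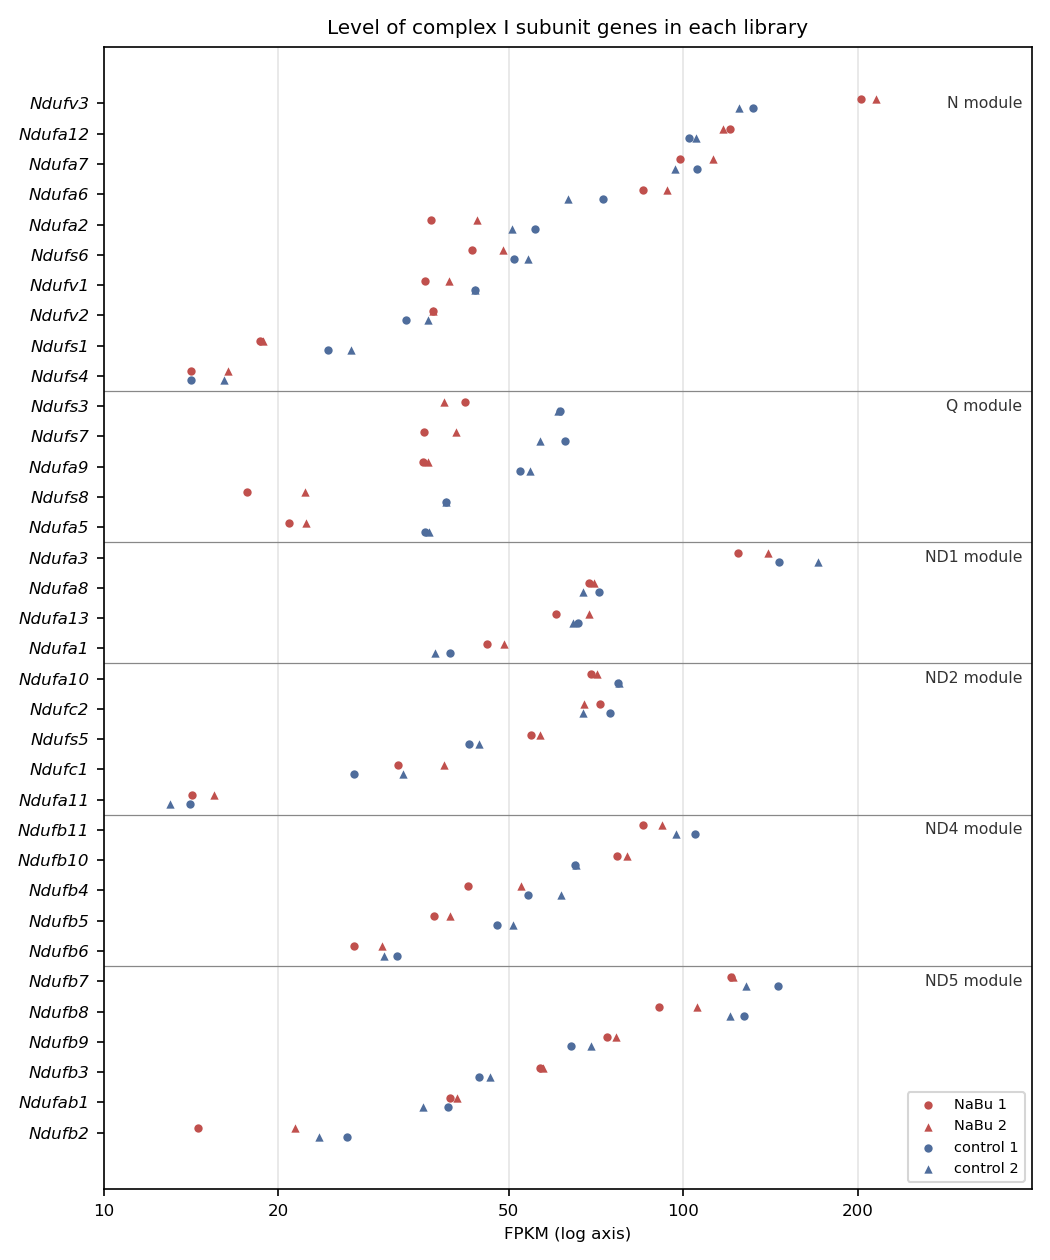
FPKM (log axis) of complex I subunit genes, in rows by module, with 1 point per library and NaBu drawn above control in each row. In the Q module, 5 genes lie well to the left in NaBu, whereas *Ndufv3* lies to the right, at 202.7 and 215.0 in NaBu against 132.2 and 124.8 in control.

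NaBu was tested against control for all genes at once with edgeR's quasi-likelihood test, and calls were made at a Benjamini-Hochberg adjusted p of 0.05. The parts of complex I were then set side by side. Of the 36 structural subunits, 18 fell, 4 rose and 14 did not pass. Over all 12943 genes tested, 34.1% fell and 34.5% rose, and 68.6% passed in either direction. The subunits' median log2 fold change was -0.20, against 0.00 for all tested genes. Their changes were mostly small: the standard deviation over subunits was 0.36, against 1.24 over all tested genes. Only *Ndufs8* passed with at least a 2-fold change, 1 of 36, and 23.1% of all tested genes did. Tested genes include ones expressed far lower than any subunit, and neither comparison was matched for level.

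The counts depend on scale and on the NaBu libraries. With library totals in place of TMM factors, the median of all tested genes moved to 0.10 and that of the subunits to -0.10. On that scale 14 subunits fell and 7 rose, while 3720 of all 12943 tested genes fell and 5175 rose. Without NaBu 1 the subunits' median was -0.16, and without NaBu 2 it was -0.23. In those 2 fits fewer calls were made among subunits and over all genes. The share of calls lost was larger among subunits, most of all without NaBu 1. The 34.1% and 34.5% of all tested genes come from the fit to all 4 libraries and do not describe fits without a library. The Q module's median was -0.62 on library totals, -0.71 without NaBu 1 and -0.76 without NaBu 2. FPKM ratios run about 0.1 higher on the log2 scale than these fold changes, which use TMM factors.

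Of the 6 modules, the Q module had the lowest median, -0.72 on the log2 scale, and all 6 of its subunits fell. On library totals the median was -0.62 and 5 fell. The number was also 5 with the DESeq2 Wald test, either limma fit, a 5 CPM minimum, the length trend removed or a replicate block. None rose, also at an unadjusted p of 0.05, with edgeR, DESeq2 or limma. Without the Q module, 12 of 30 structural subunits fell and 4 rose, beside 34.1% and 34.5% of all tested genes. The median of the 30 was -0.10, or -0.0044 on library totals. Fewer of these 30 passed without NaBu 1 or without NaBu 2, fits in which fewer of all tested genes passed too. Fewer of the 30 fell without NaBu 1 than without NaBu 2. Q module genes made up 10.8% and 10.6% of the summed subunit FPKM in NaBu libraries, against 14.7% in both controls. The Q module's summed FPKM was 229.7 and 242.4 in NaBu and 334.6 and 331.5 in control libraries.

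Promoters are shown for 4 of the Q module genes that fell and for *Ndufv3*, the subunit that rose most. Each runs 5′ to 3′ over 250 bases before and 50 after a transcription start in RefSeq (GRCm38.p6, the assembly also called mm10). Capitals mark matches on either strand to CCGGAAG, the core bound by ETS factors such as GABPA, or to AAGATGGC, a YY1 core. A search for an NRF1 core, GCGCA followed directly by its reverse complement TGCGC, found none in the printed promoters. No matches overlap each other in these windows.
Ndufs8 (minus strand, chr19:3912725-3913024): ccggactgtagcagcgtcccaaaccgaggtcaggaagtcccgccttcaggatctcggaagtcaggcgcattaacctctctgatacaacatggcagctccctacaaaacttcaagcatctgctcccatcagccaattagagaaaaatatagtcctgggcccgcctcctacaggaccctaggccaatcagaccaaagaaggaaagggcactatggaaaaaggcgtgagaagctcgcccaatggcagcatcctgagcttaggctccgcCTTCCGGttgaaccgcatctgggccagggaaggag
Ndufs7 (plus strand, chr10:80249199-80249498): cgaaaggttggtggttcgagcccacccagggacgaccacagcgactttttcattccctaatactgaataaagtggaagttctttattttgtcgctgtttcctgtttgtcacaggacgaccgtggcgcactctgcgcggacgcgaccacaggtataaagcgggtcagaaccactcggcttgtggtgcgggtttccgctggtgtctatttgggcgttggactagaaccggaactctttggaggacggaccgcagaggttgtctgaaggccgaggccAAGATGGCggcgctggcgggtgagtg
Ndufs3 (minus strand, chr2:90904672-90904971): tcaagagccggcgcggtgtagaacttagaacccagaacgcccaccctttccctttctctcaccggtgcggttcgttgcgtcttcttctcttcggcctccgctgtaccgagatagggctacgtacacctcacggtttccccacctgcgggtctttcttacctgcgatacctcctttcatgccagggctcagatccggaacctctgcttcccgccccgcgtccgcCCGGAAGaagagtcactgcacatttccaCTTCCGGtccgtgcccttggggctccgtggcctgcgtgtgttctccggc
Ndufa9 (minus strand, chr6:126849095-126849394): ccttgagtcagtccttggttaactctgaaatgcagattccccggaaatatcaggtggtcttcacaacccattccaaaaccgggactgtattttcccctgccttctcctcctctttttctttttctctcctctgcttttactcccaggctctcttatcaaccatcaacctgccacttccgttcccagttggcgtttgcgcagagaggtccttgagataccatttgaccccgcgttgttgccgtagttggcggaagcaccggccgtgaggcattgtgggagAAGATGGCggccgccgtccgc
Ndufv3 (plus strand, chr17:31519865-31520164): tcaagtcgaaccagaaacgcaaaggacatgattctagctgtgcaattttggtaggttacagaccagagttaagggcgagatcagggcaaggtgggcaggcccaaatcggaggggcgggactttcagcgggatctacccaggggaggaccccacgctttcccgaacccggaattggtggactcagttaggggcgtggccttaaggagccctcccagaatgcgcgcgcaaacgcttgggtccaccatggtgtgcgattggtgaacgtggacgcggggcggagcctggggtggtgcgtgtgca

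The 4 printed Q module promoters each held a match near or after the start, and the *Ndufv3* window held none. The GABPA core was in *Ndufs8* and, at 2 places, in *Ndufs3*, and the YY1 core was in *Ndufs7* and *Ndufa9*. No match was found for any other Q module gene, *Ndufa5* included, so the contrast with *Ndufv3* follows from which genes are printed. A gene without a RefSeq promoter could not be searched. RefSeq promoters were found for 39 of the 45 members. The YY1 core was in 7 of them, *Ndufa3*, *Ndufa9*, *Ndufb8*, *Ndufc1*, *Ndufs4*, *Ndufs6* and *Ndufs7*, and in 4.34% of 13073 promoters of tested genes. The GABPA core was in 5 of the 39 and in 17.4% of promoters of tested genes. The NRF1 core was in *Ndufa11*, *Ndufaf4* and *Ndufaf5* and in 2.03% of promoters of tested genes. A match describes these letters only.

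*Ndufs8* (gene 225887, chromosome 19, 3908863 to 3912774), a core subunit that holds iron-sulfur clusters of the Q module, fell the most of all members. Its FPKM was 17.7 and 22.2 in NaBu libraries, against 39.0 and 38.9 in control libraries. The groups were far apart, and NaBu 1 was the lowest library. It fell 2.09-fold, or by 1.06 ± 0.11 (SE) on the log2 scale, at an edgeR adjusted p of 9.11e-06. *Ndufs7* (gene 75406, chromosome 10, 80249105 to 80256794) encodes the core subunit with the last iron-sulfur cluster before ubiquinone. Its FPKM was 35.7 and 40.5 in NaBu, against 62.4 and 56.6 in control libraries. Again both NaBu libraries lay below both controls, and it fell by 0.74 ± 0.09 (SE) on the log2 scale (edgeR adjusted p = 3.44e-05).

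*Ndufs3* (gene 68349, chromosome 2, 90894627 to 90904721), a core subunit made early in Q module assembly, had an FPKM of 42.1 and 38.6 in NaBu and 61.3 and 60.9 in control libraries. It fell 1.62-fold (edgeR adjusted p = 1.2e-05), and here NaBu 2 was the lowest library. Some of its exons overlap *Kbtbd4* on the opposite strand in GENCODE M21, a gene at an FPKM of 9.11 and 10.2 in NaBu and 12.9 and 13.6 in control libraries. The use of strand in counting is not given, so reads of the shared part cannot be told apart.

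The accessory subunits of the Q module also fell. *Ndufa5* (gene 68202, chromosome 6, 24518662 to 24527690) had an FPKM of 20.9 and 22.4 in NaBu and 35.9 and 36.4 in control libraries. This was a 1.8-fold fall, the largest after *Ndufs8*, with little spread in either group (edgeR adjusted p = 2.11e-05). *Ndufa9* (gene 66108, chromosome 6, 126821863 to 126849144), which sits where the Q module meets the membrane arm and binds NADPH, had an FPKM of 35.5 and 36.3 in NaBu and 52.3 and 54.4 in control libraries. It fell 1.59-fold (edgeR adjusted p = 7.29e-06). *Ndufs8*, *Ndufs7*, *Ndufs3*, *Ndufa5* and *Ndufa9* each kept their call in 14 of 14 alternatives.

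**Figure D3:**
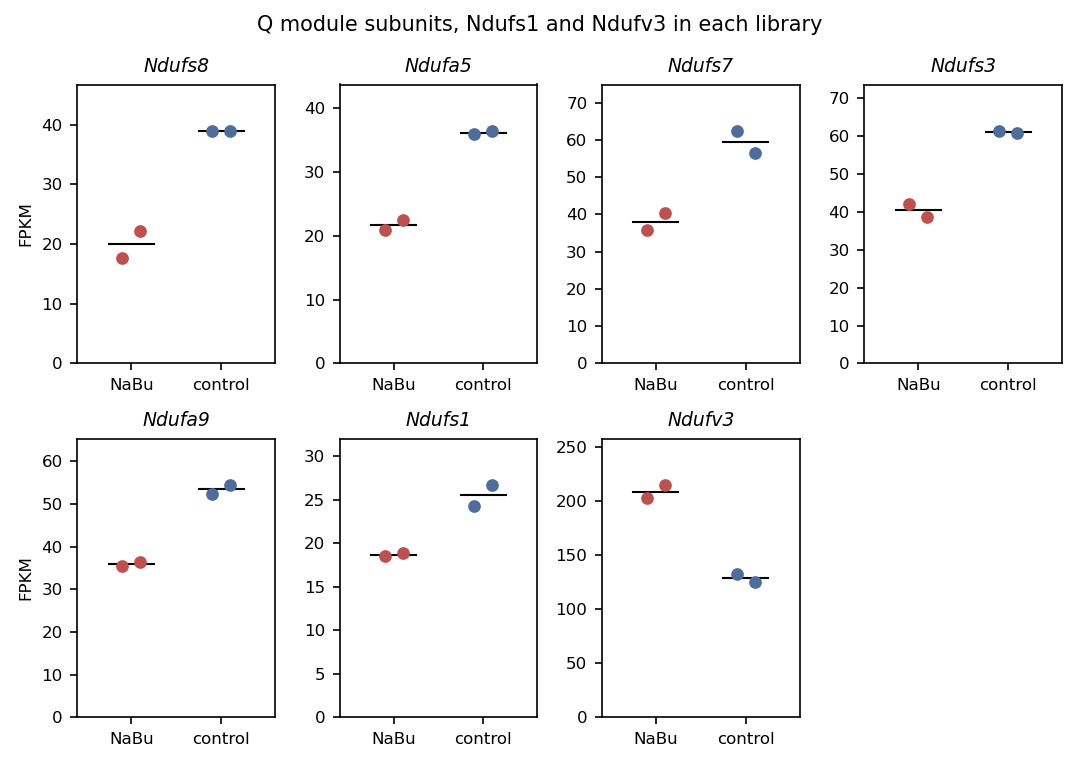
FPKM (vertical axes from 0) of 5 Q module genes, *Ndufs1* and *Ndufv3*. Points are libraries and bars are means, with NaBu left of control. *Ndufs8* is at 17.7 and 22.2 in NaBu against 39.0 and 38.9 in control, and only *Ndufv3* is higher in NaBu.

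The N module moved both ways, with 4 of 10 subunits lower and 2 higher, beside 34.1% and 34.5% of all tested genes. The median log2 fold change of its subunits was -0.06. On library totals 3 were lower and 3 higher, with a median of 0.04. Without NaBu 1, 2 were lower and 2 higher, and 1 was higher without NaBu 2 or without control 2. The highest-expressed of them, *Ndufv3* (gene 78330, chromosome 17, 31520115 to 31531326), is an accessory subunit of the NADH-binding part. Its FPKM was 202.7 and 215.0 in NaBu libraries, against 132.2 and 124.8 in control libraries. It rose 1.49-fold, or by 0.57 ± 0.06 (SE) on the log2 scale (edgeR adjusted p = 1.38e-05), and ranked 1 among the 36 subunits by level in NaBu and 3 in control. That call was kept in 14 of 14 alternatives. *Ndufa6*, an accessory subunit of the LYR protein family, was the other that rose, with an FPKM of 85.4 and 93.8 in NaBu and 72.8 and 63.2 in control libraries. Its edgeR adjusted p was 0.0117, but 0.163 without NaBu 2 and 0.0702 without control 2.

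Of the 3 core subunits of the N module, *Ndufs1* and *Ndufv1* fell. *Ndufs1*, the largest subunit of the complex and a carrier of iron-sulfur clusters, had an FPKM of 18.6 and 18.8 in NaBu and 24.3 and 26.7 in control libraries. It fell 1.47-fold (edgeR adjusted p = 4.08e-05) and shares exonic sequence with *Eef1b2* on the other strand, which was at 186.2 and 188.5 in NaBu and 188.7 and 206.7 in control libraries. *Ndufv1*, which binds NADH and the flavin, fell 1.24-fold (edgeR adjusted p = 0.00224, and 0.0682 without NaBu 1). *Ndufv2*, its partner in the same flavoprotein pair, was at 37.0 and 36.9 in NaBu and 33.3 and 36.3 in control libraries, with a log2 fold change of -0.01 ± 0.07 (SE). Over the whole complex, 6 of 7 nuclear core subunits fell and none rose, and none did at an unadjusted p of 0.05 or with DESeq2 or limma. Of 29 accessory subunits, 12 fell and 4 rose, beside 34.1% and 34.5% of all tested genes. On library totals these counts were 5 and 0 for core, and 9 and 7 for accessory subunits. For core subunits they were also 5 and 0 with the DESeq2 Wald test and with limma. Without NaBu 1 they were 4 and 0 for core, and 5 and 2 for accessory subunits, and without NaBu 2 they were 5 and 0 for core, and 10 and 1 for accessory subunits. Summed FPKM of the core genes was 264.7 and 278.9 in NaBu and 347.7 and 347.5 in control libraries. That of the accessory genes overlapped, at 1864 and 2002 in NaBu and 1931 and 1905 in control libraries.

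Membrane arm subunits changed little and unevenly, and their counts stand beside 34.1% of all tested genes that fell and 34.5% that rose. In the ND4 module 3 of 5 fell and none rose, in the ND5 module 3 of 6 fell and 1 rose, in the ND2 module 1 of 5 fell and 1 rose, and in the ND1 module 1 of 4 fell. On library totals the numbers that fell and rose were 3 and 1 in ND4, 2 and 1 in ND5, 0 and 1 in ND2 and 1 and 1 in ND1. Without NaBu 1, 1 gene fell in ND4, 1 in ND5 and 0 in ND2 and ND1, and none rose, with 1 higher in ND2 at an unadjusted p of 0.05. Without NaBu 2, 3 fell in ND4, 2 in ND5, 0 in ND2 and 1 in ND1, and none rose, with 1 lower in ND2 at an unadjusted p of 0.05. Without control 1, 3 fell in ND4, 2 in ND5, 1 in ND2 and 1 in ND1, and 1 rose in each of ND5, ND2 and ND1. Without control 2, 2 fell in ND4, 3 in ND5, 2 in ND2 and 1 in ND1, and 1 rose in each of ND5 and ND2. At an unadjusted edgeR p of 0.05, 1 gene each of the ND4 and ND1 modules was higher, and DESeq2 called none and limma 1 in each. *Ndufb2*, of the ND5 module, had the largest fall among them, at an FPKM of 14.5 and 21.4 in NaBu and 26.3 and 23.5 in control libraries. The NaBu libraries were far apart for this gene, and its log2 fold change of -0.57 ± 0.17 (SE, edgeR adjusted p = 0.0113) was -0.32 without NaBu 1 (adjusted p = 0.114) and -0.49 without control 1 (adjusted p = 0.0717). Over all modules, 11 subunits fell by under 0.5, with log2 fold changes of -0.49 to -0.17, and among them *Ndufb5* fell 1.37-fold (edgeR adjusted p = 0.000326). The membrane arm subunits that rose were *Ndufs5*, of the ND2 module, and *Ndufb3*, of the ND5 module. *Ndufs5* had an FPKM of 54.5 and 56.7 in NaBu and 42.7 and 44.3 in control libraries, a 1.2-fold rise (edgeR adjusted p = 0.018). *Ndufb3* had an FPKM of 56.5 and 57.2 in NaBu and 44.5 and 46.3 in control libraries, a 1.17-fold rise (edgeR adjusted p = 0.0193). Neither passed without NaBu 1 (edgeR adjusted p = 0.0751 for *Ndufs5* and 0.123 for *Ndufb3*) or without NaBu 2 (0.141 and 0.144).

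The 14 subunits that did not pass had log2 fold changes of -0.22 to 0.21. Several calls in this range turned on the scale. *Ndufa1*, an accessory subunit of the membrane arm, was at 45.9 and 49.1 in NaBu and 39.6 and 37.3 in control libraries, and *Ndufb10*, of the ND4 module, at 76.8 and 79.9 in NaBu and 65.0 and 65.4 in control libraries. Neither passed (edgeR adjusted p = 0.0579 and 0.0543), and both were called higher on library totals (adjusted p = 0.0107 and 0.0064). *Ndufa12*, an accessory subunit of the N module, at 120.3 and 117.4 in NaBu and 102.2 and 105.2 in control libraries, was called higher there too (adjusted p = 0.02, against 0.195 on the TMM scale). *Ndufb7*, *Ndufa10* and *Ndufs6* fell on the TMM scale and were no longer called on library totals (edgeR adjusted p = 0.063, 0.0582 and 0.0928). In all 3 both NaBu libraries lay below both controls. *Ndufb7*, of the ND5 module, was at 121.1 and 122.1 in NaBu and 145.7 and 128.2 in control libraries. *Ndufa10*, of the ND2 module, was at 69.3 and 71.0 in NaBu and 77.1 and 77.4 in control libraries. *Ndufs6*, a zinc-binding subunit of the N module, at 43.2 and 48.9 in NaBu and 51.1 and 53.9 in control libraries, shares exonic sequence with *Mrpl36* on the other strand. So do *Ndufa2* with *Tmco6*, *Ndufa3* with *Tfpt*, *Ndufa9* with *1700018A23Rik*, *Ndufb5* with *Mrpl47*, *Ndufb11* with *Rbm10* and *Ndufb2* with *Braf*, so their values carry the same doubt.

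Of the pair with subunit names outside the complex, *Ndufa4* was at an FPKM of 88.4 and 95.9 in NaBu and 87.4 and 94.0 in control libraries, and it did not pass (log2 fold change -0.07 ± 0.08, SE). *Ndufa4l2*, which is induced by hypoxia in other cells, was the only member left out of the test. It had 2 counts in NaBu 1 and 0 in the other libraries, below a floor of 3 counts, so no fold is given.

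**Figure D4:**
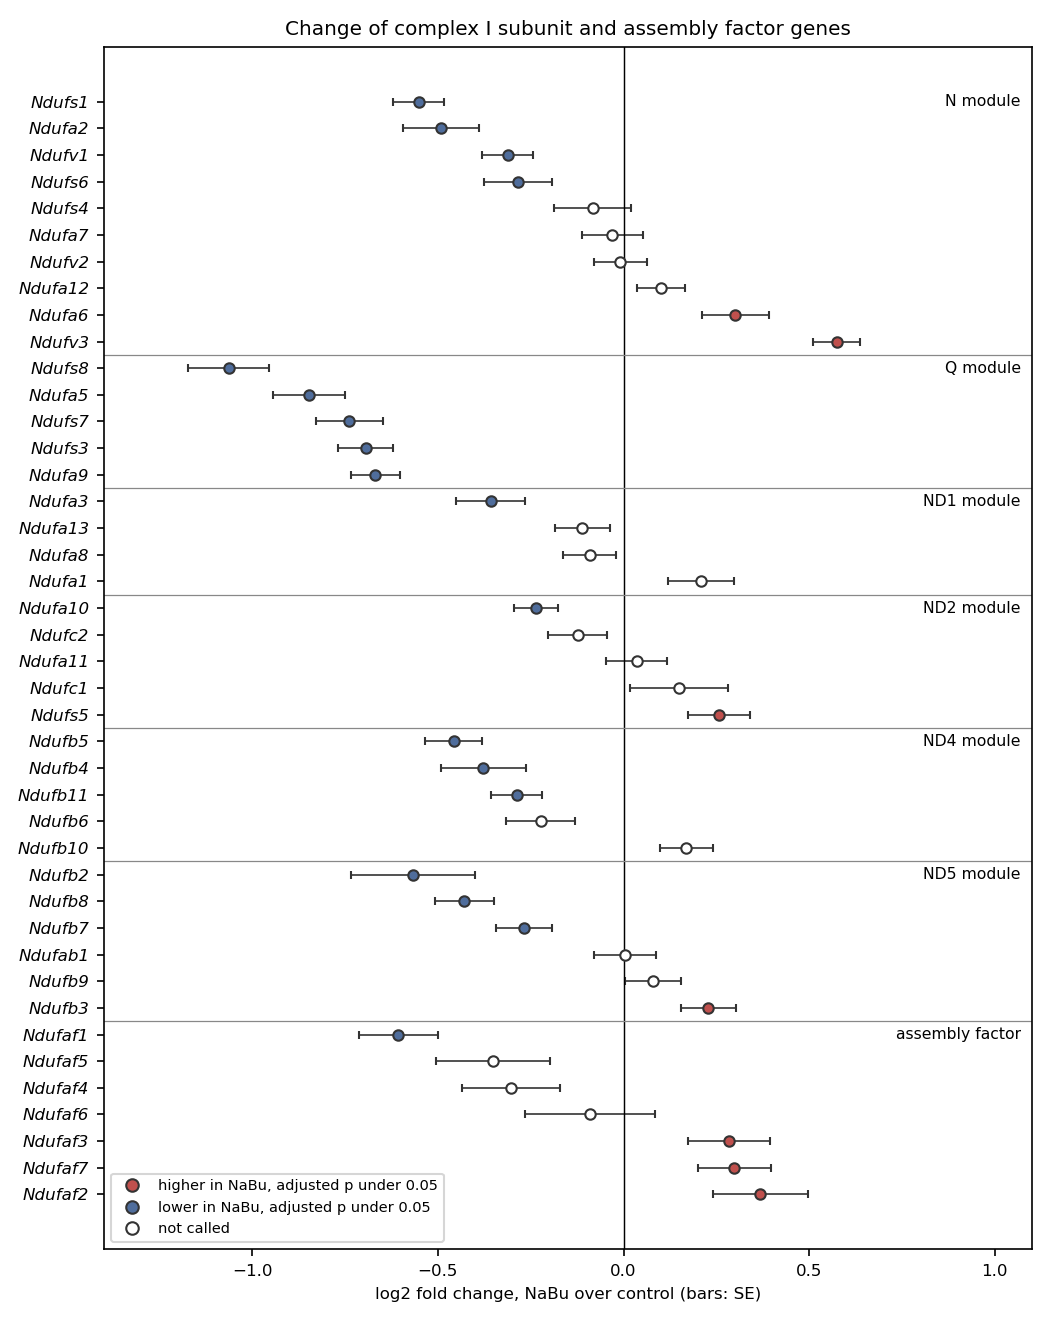
Log2 fold change of NaBu over control (bars are SE) for structural subunit genes by module and 7 assembly factors. Filled points passed edgeR's test. The Q module genes drawn lie below 0, and *Ndufv3* is the highest, at 0.57. On library totals each value lies about 0.1 higher.

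Assembly factors, which build the complex and are not part of it, were expressed at lower levels than the subunits. All 7 *Ndufaf* genes were tested, and 3 rose and 1 fell, beside 34.5% and 34.1% of all tested genes. The median log2 fold change of the 7 was -0.09, or 0.0074 on library totals, where 3 also rose and 1 fell. Summed FPKM was 49.8 and 48.7 in NaBu and 43.3 and 45.1 in control libraries. *Ndufaf1*, which helps build the membrane arm, was the one that fell, with an FPKM of 6.47 and 6.26 in NaBu and 9.01 and 9.12 in control libraries. The groups were well apart, and it fell by 0.61 ± 0.11 (SE) on the log2 scale (edgeR adjusted p = 0.000457). The call was kept in 14 of 14 alternatives.

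*Ndufaf2*, *Ndufaf3* and *Ndufaf7* rose, by 1.29-, 1.22- and 1.23-fold (edgeR adjusted p = 0.0249, 0.0419 and 0.0193). *Ndufaf2*, which acts late in assembly, was at 13.3 and 12.4 in NaBu and 9.44 and 9.13 in control libraries. *Ndufaf3*, an early factor of the Q module, was at 10.4 and 10.9 in NaBu and 8.05 and 8.29 in control libraries. *Ndufaf7*, which encodes a methyltransferase, was at 10.9 and 10.4 in NaBu and 7.48 and 8.74 in control libraries. In each case both NaBu libraries lay above both controls, but the rises were small. The number that rose was 0 without NaBu 1, without NaBu 2 or without control 1, 1 without control 2, 0 with DESeq2 and 3 with limma. At an unadjusted p of 0.05 it was 0 without NaBu 1 and with DESeq2, 2 without NaBu 2 and 1 without control 1. *Ndufaf3* also overlaps *Impdh2* on the opposite strand, which was at 90.8 and 96.3 in NaBu and 151.5 and 154.4 in control libraries.

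*Ndufaf4*, the partner of *Ndufaf3*, and *Ndufaf5*, which in human cells hydroxylates the *Ndufs7* product, did not pass. *Ndufaf4* was at 2.85 and 2.39 in NaBu and 2.78 and 3.27 in control libraries, and *Ndufaf5* at 2.24 and 2.31 in NaBu and 2.38 and 3.05 in control libraries (edgeR adjusted p = 0.0623 and 0.0621). Both were called lower without control 1, which raised the number that fell to 3. *Ndufaf6* was at 3.73 and 4.02 in NaBu and 4.20 and 3.52 in control libraries, with overlapping groups. The gene now named *Ndufaf8* appears in the files as *1810043H04Rik*, so it fell outside the naming rule and was looked up after the other values were seen. It encodes a partner of the NDUFAF5 protein in human cells, and had an FPKM of 10.8 and 10.2 in NaBu and 15.7 and 15.5 in control libraries. It fell 1.59-fold (edgeR adjusted p = 0.00142).

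**Figure D5:**
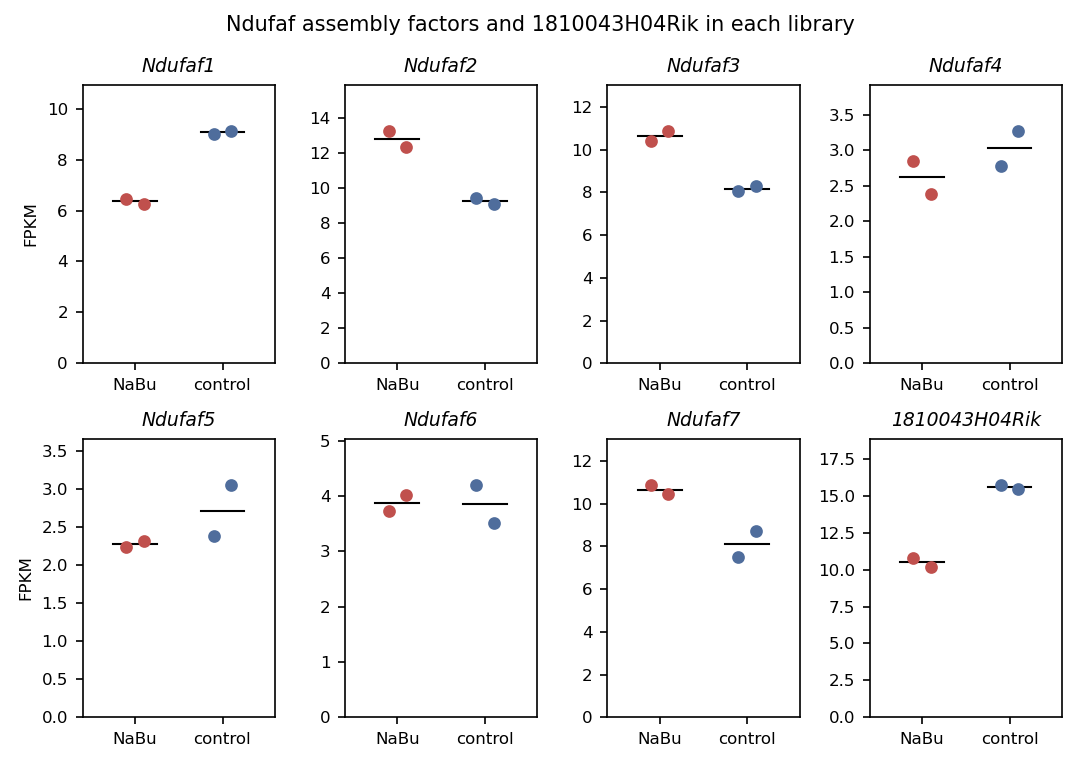
FPKM (vertical axes from 0) of 7 *Ndufaf* genes and *1810043H04Rik*. Points are libraries and bars are means, with NaBu left of control. *Ndufaf1* and *1810043H04Rik* are lower in NaBu with the groups well apart, and *Ndufaf4* and *Ndufaf6* overlap.

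Genes that work with complex I were read from the same fit. Of 15 tested assembly factors named otherwise, 2 rose and 5 fell, shares set against 34.5% and 34.1% of all tested genes. The numbers that rose and fell were 3 and 2 on library totals, 1 and 1 without NaBu 1 or with DESeq2, 1 and 3 without NaBu 2, and 2 and 2 without control 1. Of those that passed, the largest changes were falls of *Tmem126b* and *Acad9*, both of the complex that assembles the membrane arm, and of *Nubpl*, which delivers iron-sulfur clusters to complex I. *Tmem126b* was at 5.27 and 7.18 in NaBu and 8.20 and 8.29 in control libraries, *Acad9* at 7.14 and 7.43 in NaBu and 9.24 and 9.59 in control libraries, and *Nubpl* at 3.02 and 3.69 in NaBu and 4.25 and 4.37 in control libraries. In all 3 the NaBu libraries lay below the controls, with edgeR adjusted p of 0.0193, 0.000346 and 0.0323.

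Iron-sulfur cluster assembly supplies the clusters of the N and Q modules. Of its 14 tested genes, 6 rose and 7 fell, beside 34.5% and 34.1% of all tested genes. *Fdx1l*, encoding a mitochondrial ferredoxin, fell 2.12-fold and was at 9.16 and 8.63 in NaBu and 15.4 and 19.9 in control libraries (edgeR adjusted p = 6.45e-05). *Iscu*, encoding the scaffold on which clusters form, rose 1.64-fold, with 25.5 and 26.9 in NaBu and 14.1 and 15.7 in control libraries (edgeR adjusted p = 6.97e-05).

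Among regulators of mitochondrial biogenesis, 5 of 7 tested genes fell and none rose, beside 34.1% and 34.5% of all tested genes. The counts were the same on library totals and with DESeq2, while limma called 3. None rose at an unadjusted p of 0.05 in these fits. With no filter on low counts, 8 were tested, 4 fell, and 1 was higher at an unadjusted edgeR p of 0.05. Fewer also fell without NaBu 1 or without NaBu 2. *Pprc1*, a coactivator of the PGC-1 family, was at 11.4 in both NaBu libraries and 18.5 and 18.6 in control libraries (edgeR adjusted p = 9.07e-07). *Nrf1*, a transcription factor of respiratory genes, was at 11.0 and 10.9 in NaBu and 16.1 and 15.8 in control libraries (edgeR adjusted p = 1.77e-05). *Tfam*, needed to transcribe mitochondrial DNA, was at 8.53 and 9.73 in NaBu and 10.1 and 13.0 in control libraries (edgeR adjusted p = 0.00692). These genes fell 1.74-, 1.55- and 1.35-fold.

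Other enzymes that pass electrons to ubiquinone were set beside complex I. Their counts stand against 34.5% of all tested genes that rose and 34.1% that fell. Of 8 genes of complex II, or succinate dehydrogenase, 2 rose and 2 fell, and 1 rose and 1 fell without NaBu 1 and without NaBu 2. These numbers were 2 and 3 without control 1, and 3 and 2 without control 2 or on library totals. *Sdha*, its flavoprotein, fell 1.59-fold and was at 58.2 and 59.1 in NaBu and 85.9 and 88.6 in control libraries (edgeR adjusted p = 2.77e-06). *Sdhb*, its iron-sulfur subunit, fell 1.18-fold, and the assembly factor *Sdhaf2* rose 1.3-fold (edgeR adjusted p = 0.00351 and 0.000571). Of 5 further ubiquinone reductases tested, 2 rose and none fell, also at an unadjusted p of 0.05 and with DESeq2, while limma called 3 higher. *Sqrdl*, encoding sulfide quinone reductase, rose 7.08-fold at low levels and was at 4.19 and 3.62 in NaBu and 0.56 and 0.48 in control libraries (edgeR adjusted p = 1.25e-06). *Gpd2*, the mitochondrial glycerol phosphate dehydrogenase, rose 1.37-fold and was at 23.9 and 23.5 in NaBu and 15.7 and 16.7 in control libraries (edgeR adjusted p = 7.24e-05).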

How the data were processed

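RNA-seq of 4 libraries was used, grouped by sample titles. The submitters' processing notes name Bowtie2, RSEM and the mm10 build. Tool versions, annotation release and use of strand were not given in the sources used here. The deposited expected counts, which RSEM estimates and need not be whole, were rounded for testing. The FPKM values deposited by the authors were used unchanged, and the transcript length is another deposited column. The series table holds the same FPKM (largest difference 0.0). A gene absent from a library's file was set to 0. Coordinates come from RefSeq GRCm38.p6, where 45 of 45 members matched.

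The test was made in edgeR 4.0.16 (R 4.3.3), using TMM factors of 1.03 in each NaBu library and 0.968 and 0.966 in control libraries, filterByExpr (12943 genes kept) and a quasi-likelihood F test without covariates, with 2 residual degrees of freedom and p-values adjusted by Benjamini-Hochberg over all tested genes. Each gene's variance was moderated towards that of other genes, with a median of 8.25 prior degrees of freedom. SE was taken as the size of the log2 fold change over the root of F. The fits were tested on simulated counts. The counting floor of 3 covers counting error only.

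Members and lists were chosen with earlier results of these data known. Values by library are given for called members changed by 0.5 or more on the log2 scale, for members whose call depends on scaling, for the highest subunit and the member not tested, and for the 3 largest called changes with an FPKM of 1 or more in other lists; further genes were chosen after seeing values. Alternatives were DESeq2 1.42.0 and its size factors, library totals, no filter, 5 CPM in 2 libraries, limma 3.58.1 on log2(FPKM + 1) and log2(FPKM + 0.1), length trend removal, GC trend removal (added after seeing the data), a replicate block and leaving out each library. Some genes counted in these lists are not reported here by name.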

Additional observations from a re-analysis of the deposited data

How the results depend on the processing

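None of the 44 tested *Nduf* genes reversed a called direction under the 14 alternatives. Over all genes, counts of calls stayed within 1.5 times those given. Among subunits by name, 4 rose and 18 fell. The number that rose was 7 on library totals, 7 with a minimum of 5 CPM, 2 with the DESeq2 Wald test and 8 with limma at either pseudocount. Leaving out each library gave 1 to 5 that rose and 9 to 17 that fell, the lowest numbers without a NaBu library; in those fits a lone library is assumed to vary like the others. Of assembly factors, 3 rose and 1 fell. The number that rose was 1 with no filter, 0 with DESeq2 and 0 to 1 without each library, and the number that fell was 1 to 3 without each library. The cause was not tested. With the replicate block, 3 assembly factors fell in place of 1, and 4 subunits rose and 17 fell; same-numbered libraries did not deviate together (correlation -0.03), so numbers were not taken as pairs. With the length trend removed, 4 subunits rose and 18 fell, and with the GC trend removed, a fit added after seeing the data, 6 and 19. *Ndufaf6* rests on 77 to 91 counts a library.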
